A study of Homo sapiens with 3 samples.

Results

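ATF4 and 9 genes known as its stress targets (ATF3, DDIT3, DDIT4, TRIB3, CHAC1, SESN2, ASNS, PPP1R15A and CEBPB) were followed through the knockdown of the deubiquitinase USP16 in PC3 cells, a human prostate cancer cell line that grows without androgen. These 10 genes were chosen by name from the 60930 genes of the expression table, and DDIT4 was picked for its higher level under both hairpins in these same libraries. The values of DDIT4 are therefore a description and support nothing further. The other genes were also chosen with earlier results of these data known, so counts over them are a description too. All 10 were above 1 TPM, a measure of transcript share corrected for gene length, in every library, so each was among the 13637 genes compared, whose mean level reached 1 TPM, and none entered only through the group in which it was high.

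The 3 groups compared were cells made stable by puromycin selection: shCON, the control, and shUSP16#1 and shUSP16#2, each carrying a hairpin against USP16 in the pLKO.1 vector. The paper calls shCON a vector control where it describes its xenografts, and the deposited column of the control is labelled RFP. Whether the control carries a hairpin is not given in the sources used here. Each group was 1 library of total RNA, so no difference below has a replicate check, an error or a p-value, and clone-to-clone or culture-to-culture variation cannot be told apart from the effect of a hairpin. The sources do not say whether a line was a pool or a clone, and both knockdown lines were compared with the same shCON library. The targeted stretches of USP16 are shown as the sense strand of each hairpin, in lower case because no base in them is singled out.
shUSP16#1: gccagaagaaatcatgtttat
shUSP16#2: cggtgatattccacaagattt
USP16 itself was at 19.9 TPM in shCON, 3.5 TPM in shUSP16#1 and 1.08 TPM in shUSP16#2. The targeted gene was thus lowest where its hairpins were expressed, and its log2 change was -2.22 under shUSP16#1 and -3.33 under shUSP16#2.

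The integrated stress response begins when a kinase phosphorylates the translation factor eIF2alpha, which slows general protein synthesis but lets the ATF4 mRNA be translated. ATF4 protein, a bZIP transcription factor, then switches on genes for amino acid supply, redox balance, feedback on the pathway and, under lasting stress, cell death. Because ATF4 is set largely by translation, its mRNA is no measure of its protein, and the mRNA of its targets is the usual readout.

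The cells carried the keratins and adhesion molecule of an epithelial line: KRT8 was between 622 and 748 TPM, KRT18 between 778 and 947 TPM and EPCAM between 136 and 273.5 TPM. KLK3, a marker of prostate luminal cells, was at 0 in all libraries, and the white blood cell marker PTPRC was at most 0.14 TPM. The fibroblast marker COL1A1 was between 4.19 and 10.7 TPM and the endothelial marker PECAM1 between 0.14 and 1.28 TPM, with each at its lowest in shCON. Changes were computed as the log2(TPM + 1) of a knockdown library minus that of shCON, a scale that understates low genes. The median change of all 13637 genes was -0.17 under shUSP16#1 and -0.37 under shUSP16#2, so a gene at 0 already lay above the typical gene. Protein-coding genes held 93.2% of TPM in shCON, 95.3% in shUSP16#1 and 88.7% in shUSP16#2. In the same order, 13763, 13701 and 12984 genes reached 1 TPM. The part of this composition in the differences between hairpins was not tested. Across the 13296 genes with a known transcript, the change also moved with GC content (Spearman 0.53 and 0.63, given as a description across genes that share the same 3 libraries). The members were richer in GC than the rest, with a median of 58.5% against 49.1%. The median of the genes of like GC content is therefore given beside the members, and the part of base composition in their values was not tested.

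DDIT4 was the 1 member of 10 that rose at least 2-fold under both hairpins, the call used throughout, against 1.14% of all genes tested. No member fell at least 2-fold under both, against 4.6% of all genes. DDIT4 was chosen for this rise, so nothing is read from the first count, and the other counts of the 10 also include it. Of the 10, 6 were above 0 under both hairpins (ATF4, DDIT4, TRIB3, CHAC1, SESN2 and ASNS), a sign pattern that 24.5% of all genes had. PPP1R15A was the 1 member below 0 under both, a pattern of 57.2% of all genes, and ATF3, DDIT3 and CEBPB had opposite signs. Counted against the median of all genes, 8 members lay above it under both hairpins, where 41.7% of all genes did. Counted against the median of genes of like GC content, 7 members lay above it under both and 2, PPP1R15A and CEBPB, below it under both, where 38.8% of all genes lay above. Without DDIT4, 5 of 9 members were above 0 under both hairpins and 7 of 9 lay above the median of all genes under both. Those 9 were also chosen with earlier results of these data known, so leaving out DDIT4 does not free the counts from selection. The median change of the members was 0.25 under shUSP16#1 and 0.20 under shUSP16#2, and 0.12 and 0.05 without DDIT4.

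**Figure D1:**
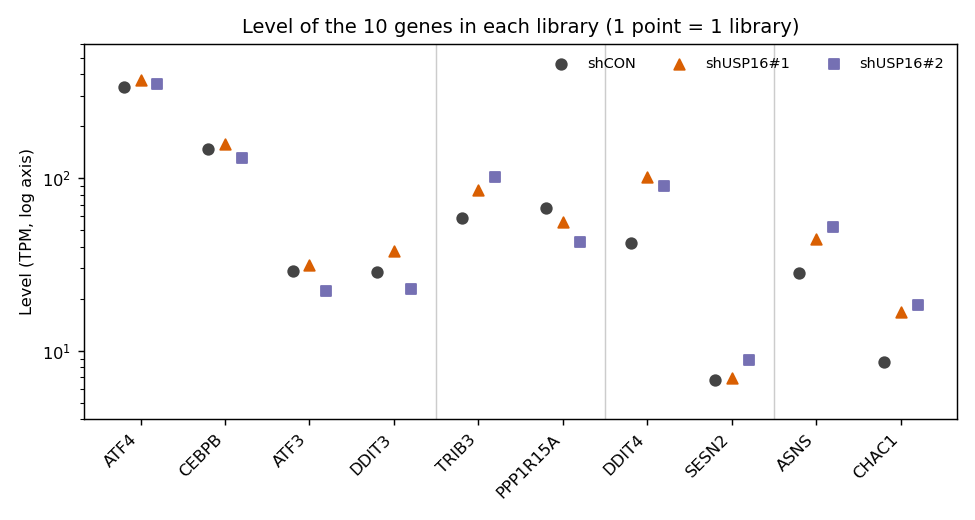
Level of each of the 10 genes (TPM, log axis) in the shCON, shUSP16#1 and shUSP16#2 libraries, 1 point for each library, with genes ordered as transcription factors, feedback genes, mTORC1 inhibitors and metabolic enzymes. DDIT4, TRIB3, ASNS and CHAC1 were higher in both knockdown libraries than in shCON, PPP1R15A was lower in both, and ATF4 lay between 339.8 and 369 TPM.

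Among the transcription factors, ATF4 (chr22:39519695-39522685 in GRCh38, the build of all positions here) was the most abundant member. Its level was 339.8 TPM in shCON, 369 TPM in shUSP16#1 and 351 TPM in shUSP16#2. The log2 change was 0.12 and 0.05, and genes of like GC content had medians of 0.10 and 0.02, so the ATF4 transcript stood close to such genes. With the GC trend removed and the median of all genes kept, its mean change turned from 0.08 to -0.25. Reads from ATF4 pseudogenes were near absent, with at most 0.06 TPM for any of the 4 that carry its name in the table.

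CEBPB (chr20:50190734-50192689), a bZIP factor that forms dimers with ATF4 at amino acid response elements, was at 147 TPM in shCON, 158 TPM in shUSP16#1 and 131 TPM in shUSP16#2. Its knockdown libraries lay on either side of shCON, with log2 changes of 0.11 and -0.16. Its distance from the median of genes of like GC content was -0.13 and -0.37, and its mean change of -0.03 became 0.24 when values were centred on the median of all genes.

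ATF3 (chr1:212565334-212620777), a bZIP factor induced early by many stresses, was at 28.98 TPM in shCON, 31.4 TPM in shUSP16#1 and 22.0 TPM in shUSP16#2. DDIT3 (chr12:57516588-57521737), which encodes CHOP, the factor tied to death under lasting stress, was at 28.8, 37.9 and 22.9 TPM in the same order. Both genes were highest in shUSP16#1 and lowest in shUSP16#2, with log2 changes of 0.11 and -0.38 for ATF3 and 0.39 and -0.32 for DDIT3. For ATF3 the sign of the mean of both hairpins, -0.14, turned to 0.13 when values were centred on the median of all genes. DDIT3 shares 355 of its exon bases, 27.2%, with MARS on the opposite strand, which was at 188, 164 and 209 TPM, and the sources do not say whether counting used strand. Reads of the pair may therefore not be told apart.

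The feedback genes moved apart. TRIB3 (chr20:362835-397559), a pseudokinase that binds ATF4 and CHOP and restrains them, was at 58.6 TPM in shCON, 85.7 TPM in shUSP16#1 and 102 TPM in shUSP16#2. It was 1.46-fold and 1.74-fold of its shCON level, with log2 changes of 0.54 and 0.79, short of 2-fold under both. Against genes of like GC content, whose medians were 0.19 and 0.15, TRIB3 stood higher by 0.35 and 0.63.
PPP1R15A, or GADD34, which brings a phosphatase to eIF2alpha and so ends the response, was at 67.2 TPM in shCON, 55.8 TPM in shUSP16#1 and 42.6 TPM in shUSP16#2. It was the 1 member lower in both knockdown libraries than in shCON, with log2 changes of -0.26 and -0.64. Against genes of like GC content its distance was -0.36 and -0.71, and its mean change stayed below 0 under each of the 5 other scalings computed, between -0.81 and -0.18. The promoter of PPP1R15A is shown because it holds a full cAMP response element, TGACGTCA, a palindrome that CREB and ATF factors bind, in capitals and 58 bases upstream of the start. The 250 bases before the start (chr19:48872171-48872420, plus strand) are from RefSeq, GRCh38.p14, as is the start itself.
PPP1R15A: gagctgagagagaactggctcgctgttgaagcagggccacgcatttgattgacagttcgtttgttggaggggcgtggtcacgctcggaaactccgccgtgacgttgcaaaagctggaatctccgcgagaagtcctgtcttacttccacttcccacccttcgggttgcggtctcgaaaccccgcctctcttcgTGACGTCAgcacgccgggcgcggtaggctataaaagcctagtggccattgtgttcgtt
This element was in 1.85% of the 35116 promoter windows of RefSeq genes, each 300 bases long (250 before the start and 50 after it), and in no window of the other members. A match of letters is a description and not a bound site.

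DDIT4, or REDD1, is an inhibitor of mTORC1, the kinase complex that couples nutrients to growth, and is induced by hypoxia as well as by ATF4. Its level was 41.9 TPM in shCON, 102 TPM in shUSP16#1 and 89.6 TPM in shUSP16#2. Both knockdown libraries held more than 2 times the shCON level, at 2.43-fold and 2.14-fold, with log2 changes of 1.26 and 1.08. These values were above those of 98.5% and 97.7% of all genes tested, as follows in part from how DDIT4 was chosen. Genes of like GC content had medians of 0.09 and 0.01, and DDIT4 exceeded them by 1.17 and 1.07. Where the GC trend was removed and the median of all genes kept, its changes were 1.00 and 0.70 and the call was lost, so that no member was called against 0.755% of all genes. The antisense gene DDIT4-AS1 covers 41.2% of the exon bases of DDIT4 and was listed at 0 in all libraries.

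The promoter of DDIT4 is shown because DDIT4 was the member that rose. Its 250 bases before the start (chr10:72273674-72273923, plus strand) hold no C/EBP-ATF response element, the composite site that ATF4 binds with C/EBP partners, searched as TGATGNAA on both strands. They hold 1 core of the hypoxia response element, ACGTG, in capitals, 125 bases upstream of the start.
DDIT4: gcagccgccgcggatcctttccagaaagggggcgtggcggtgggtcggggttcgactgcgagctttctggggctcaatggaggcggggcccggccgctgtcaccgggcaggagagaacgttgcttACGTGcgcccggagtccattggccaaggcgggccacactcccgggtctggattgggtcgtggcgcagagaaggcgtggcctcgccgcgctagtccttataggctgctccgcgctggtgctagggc
That core was found in 21.4% of all promoter windows and, among the members, in those of DDIT4 and ATF4. In ATF4 it lies within an E-box, CACGTG, a palindrome that MYC and related factors bind and that 7.26% of windows held. The absence of a site from such a short window says nothing of sites elsewhere.

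SESN2 (chr1:28259527-28282491), the other mTORC1 inhibitor among the members and a sensor of leucine, was the lowest of the 10 genes. It was at 6.73 TPM in shCON, 6.98 TPM in shUSP16#1 and 8.88 TPM in shUSP16#2, with log2 changes of 0.05 and 0.35. Its pattern thus differed in size from that of DDIT4, and the mean change of 0.20 turned to -0.18 with the GC trend removed and the median of all genes kept.

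Of the metabolic enzymes, CHAC1, which degrades glutathione, was the member nearest to the 2-fold threshold on its outer side. Its level was 8.58 TPM in shCON, 16.8 TPM in shUSP16#1 and 18.4 TPM in shUSP16#2. The ratio to shCON was 1.96-fold and 2.15-fold, and the log2 changes were 0.89 and 1.02, since the added 1 TPM weighs on a gene of this level. DDIT4, just inside the threshold, had 1.08 as its smaller change, against 0.89 for CHAC1. Centring on the median of all genes carried CHAC1 to 1.06 and 1.39, which made it the second member called against 2.5% of all genes. Against genes of like GC content it stood higher by 0.69 and 0.86.

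ASNS, asparagine synthetase, was at 28.2 TPM in shCON, 44.4 TPM in shUSP16#1 and 51.9 TPM in shUSP16#2. Its log2 changes were 0.64 and 0.86, short of 2-fold under both. Its transcript was poor in GC for a member, at 47.0%, and genes of like GC content had medians of -0.30 and -0.55. ASNS exceeded those medians by 0.94 and 1.41, the second distance being larger than that of DDIT4. ASNS shares 1985 exon bases, 44.6% of its own, with AC079781.5 on the same strand. That transcript was at 31.1, 21.5 and 17.8 TPM, lower where ASNS was higher, so how reads were divided between the overlapping genes bears on the value of ASNS, and this was not tested. The pseudogenes of ASNS were listed at 0.

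The promoters of CHAC1 and ASNS are shown because both genes hold the C/EBP-ATF response element, in capitals, and stood high against genes of like GC content. In CHAC1 (chr15:40953221-40953470, plus strand) it is 209 bases upstream of the start and on the reverse strand, where it reads TTNCATCA. In ASNS (chr7:97872409-97872658, minus strand) it is 68 bases upstream.
CHAC1: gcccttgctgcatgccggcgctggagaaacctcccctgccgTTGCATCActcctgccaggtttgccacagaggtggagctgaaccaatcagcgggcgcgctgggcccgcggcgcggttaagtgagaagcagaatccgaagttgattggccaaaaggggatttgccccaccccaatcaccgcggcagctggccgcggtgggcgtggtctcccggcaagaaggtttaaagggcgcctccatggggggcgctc
ASNS: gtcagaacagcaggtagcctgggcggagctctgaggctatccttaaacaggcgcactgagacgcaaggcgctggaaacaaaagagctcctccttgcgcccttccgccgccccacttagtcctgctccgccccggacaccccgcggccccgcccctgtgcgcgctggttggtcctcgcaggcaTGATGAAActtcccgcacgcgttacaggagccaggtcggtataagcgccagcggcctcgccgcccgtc
The element was in 3.62% of all promoter windows and in those of 3 members, the other being ATF3, 191 bases upstream of the start. Those 3 members did not share a pattern in these libraries, since ATF3 was at 28.98, 31.4 and 22.0 TPM in shCON, shUSP16#1 and shUSP16#2. All 10 members had at least 1 window, 17 in all.

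**Figure D2:**
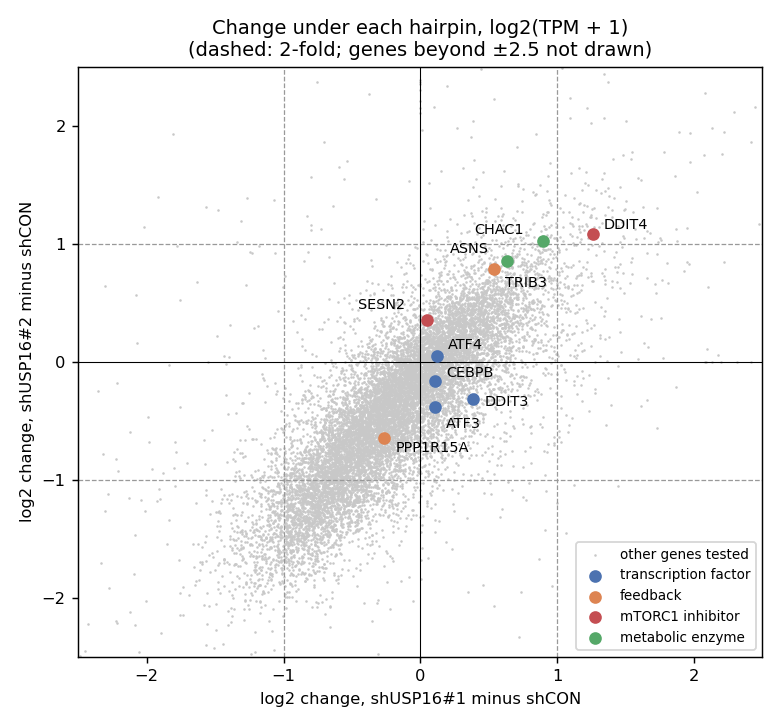
Log2 change of each gene under shUSP16#1 (horizontal axis) and shUSP16#2 (vertical axis) against the same shCON library on the log2(TPM + 1) scale, with the 10 members coloured by role, other genes tested in grey and the 2-fold limit dashed. DDIT4 lies beyond 2-fold on both axes (1.26 and 1.08), CHAC1 beyond it on the vertical axis only (0.89 and 1.02), and PPP1R15A (-0.26 and -0.64) is the member at the lower left.

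**Figure D3:**
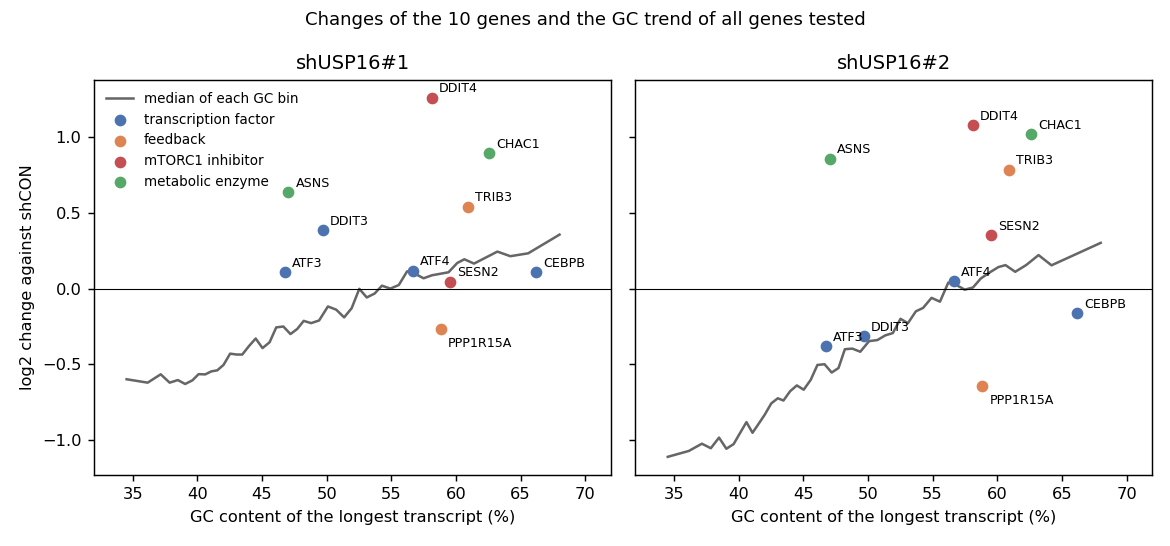
Log2 change against shCON of the 10 members, coloured by role, plotted against the GC content of the longest transcript (%), for each hairpin, with the line joining the medians of 50 bins of all genes with a known transcript. ASNS, at 47.0% GC, lies 0.94 and 1.41 above the line, ATF4 lies on it, and PPP1R15A lies below it under both hairpins.

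**Figure D4:**
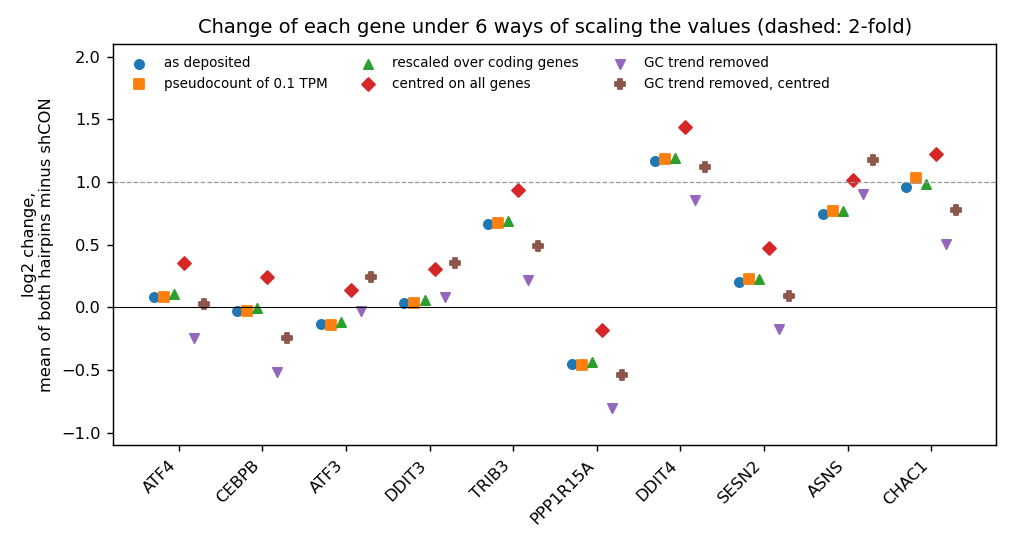
Mean log2 change over both hairpins for each member under 6 scalings: as deposited, with a pseudocount of 0.1 TPM, rescaled over protein-coding genes, centred on the median of all genes, with the GC trend removed, and with the trend removed and centred (dashed line, 2-fold). DDIT4 ranged from 0.85 to 1.44 over the 5 other scalings, ASNS from 0.76 to 1.17 and PPP1R15A from -0.81 to -0.18, whereas ATF4, ATF3, SESN2 and CEBPB changed sign.

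The rest of the pathway was taken from lists of named genes, described by counts beside the same counts over all genes. The lists were drawn up with earlier results of these data known, so their counts are a description only. Of 12 paralogs of the members, 9 were compared, and none rose or fell at least 2-fold under both hairpins. ATF5, a bZIP factor translated under stress as ATF4 is, was at 119 TPM in shCON, 79.9 TPM in shUSP16#1 and 51.9 TPM in shUSP16#2, with log2 changes of -0.57 and -1.19. Genes of like GC content to ATF5 had medians of 0.17 and 0.14, so ATF5 lay below such genes under both hairpins. PPP1R15B, the constitutive partner of the phosphatase that PPP1R15A recruits, was at 21.7, 13.3 and 9.42 TPM, with changes of -0.66 and -1.12. Genes of like GC content to PPP1R15B had medians of -0.44 and -0.74. Both phosphatase partners were thus lower in each knockdown library than in shCON, as were 57.2% of all genes. CHAC2, at 17.6, 10.8 and 7.29 TPM, had changes of -0.65 and -1.16, opposite in sign to CHAC1, and its transcript was poor in GC, at 36.7%, where genes had medians of -0.57 and -1.02.

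The remaining paralogs were mixed. TRIB1, a pseudokinase like TRIB3, was at 21.7, 14.6 and 11.1 TPM, with changes of -0.54 and -0.91, where genes of like GC content had medians of -0.002 and -0.20. TRIB2 had changes of 0.52 and -0.32. SESN1 was at 1.95 TPM or less and SESN3 at 0.04 TPM or less, which left SESN2 the most abundant sestrin. Of the C/EBP family, CEBPA was low but higher under both hairpins, at 1.01, 1.56 and 3.02 TPM, whereas CEBPG had changes of -0.34 and -0.68 and CEBPD 0.09 and -0.45. DDIT4L was listed at 0 and JDP2, a relative of ATF3, was under the minimum.

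The sensors and their target were lower as a group by their values, with none past 2-fold under both hairpins. Of 12 genes for the eIF2alpha kinases, the subunits of eIF2 and those of its exchange factor eIF2B, 11 were below 0 under both hairpins, a pattern of 57.2% of all genes, and none was above 0 under both. Their median change was -0.49 under shUSP16#1 and -0.72 under shUSP16#2, and their median GC content was 45.6%. EIF2AK3, or PERK, the kinase of the endoplasmic reticulum, was at 5.89, 3.63 and 2.5 TPM, with changes of -0.57 and -0.98. EIF2AK4, or GCN2, the sensor of uncharged tRNA, was at 48.1, 35.9 and 25.2 TPM, with changes of -0.41 and -0.91. Of the other kinases, EIF2AK1, or HRI, had changes of -0.50 and -0.73, and EIF2AK2, or PKR, -0.73 and -1.51. With the GC trend removed the medians of the list were -0.29 and -0.51, against -0.17 and -0.37 for all genes.

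Of 49 other targets of ATF4 in 4 lists, 46 were compared, 4 rose and none fell at least 2-fold under both hairpins, where 1.14% and 4.6% of all genes did. Because earlier results were known when these lists were made, nothing is read from the difference between those shares. The amino acid synthesis list had 1 of 11 that rose, CBS, which makes cystathionine for cysteine supply, at 7.43, 17.0 and 16.9 TPM with changes of 1.10 and 1.09. PHGDH, the first enzyme of serine synthesis, was next at 0.93 and 0.87, under the limit, while PSAT1, the second, had -0.34 and -0.31. Genes of like GC content had medians of -0.002 and -0.20 for PHGDH and of -0.43 and -0.76 for PSAT1. The genes of 1 route thus had opposite signs against shCON, while both lay above genes of like GC content. Among amino acid transporters, 1 of 9 rose, the glycine transporter SLC6A9, at 9.05, 21.9 and 23.2 TPM with changes of 1.19 and 1.27. SLC7A11, the cystine carrier, was low and had changes of -0.78 and -1.09. Its transcript was poor in GC, at 35.4%, and genes of like GC content had medians of -0.62 and -1.07, close to its own changes.

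In the list of secreted, survival and other stress targets, 2 of 14 rose. NUPR1, a small chromatin protein of the stress response, was at 12.8 TPM in shCON, 34.9 TPM in shUSP16#1 and 35.4 TPM in shUSP16#2, with changes of 1.38 and 1.4. GDF15, a secreted factor of the TGF-beta family induced by stress, was at 18.5, 141 and 46.2 TPM, with changes of 2.87 and 1.28. Its hairpins agreed in direction but not in size. With the GC trend removed and the median of all genes kept, the smaller change fell under 2-fold for GDF15 (0.69), SLC6A9 (0.80) and CBS (0.71), as it did for DDIT4 (0.70), but not for NUPR1 (1.33). No tRNA synthetase of 12 passed 2-fold under both, with 4 above 0 and 7 below 0 under both, where 24.5% and 57.2% of all genes were. Over the 4 lists, 18 of the 46 genes were above 0 and 23 below 0 under both hairpins, to be read against the same shares, and the median changes were -0.07 and -0.21, between those of the members and those of all genes.

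**Figure D5:**
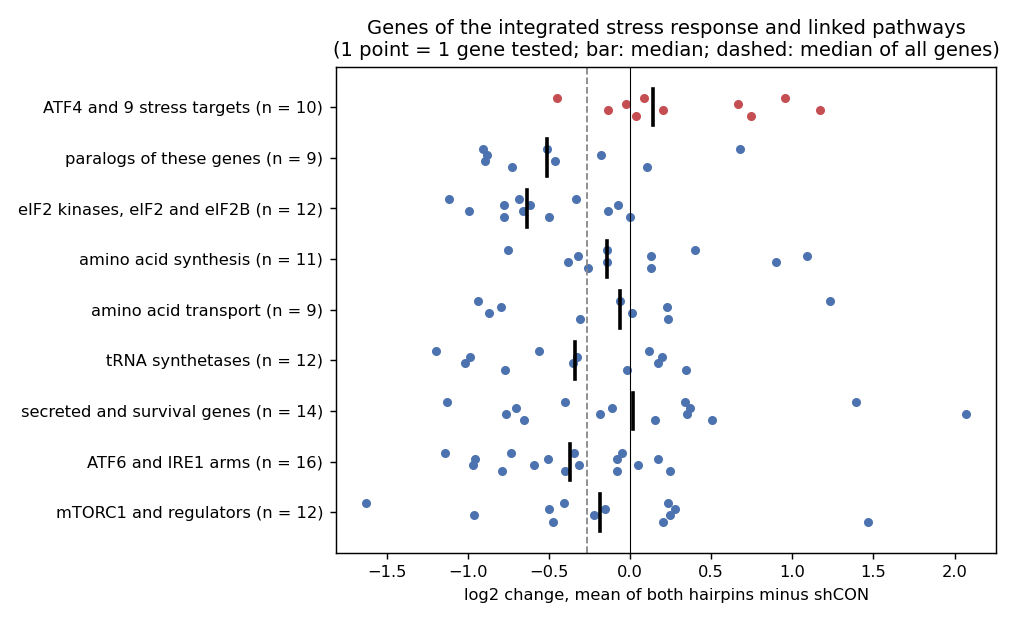
Mean log2 change over both hairpins against shCON for each gene compared, in the members (red) and 8 lists of linked genes (blue), with the bar at the median of each list, the dashed line at the median of all genes and the number of genes beside each name. The median of the members, 0.14, lies above 0, and that of the kinases, eIF2 and eIF2B lies below the dashed line.

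The ATF6 and IRE1 arms of the unfolded protein response run beside the ATF4 arm after stress in the endoplasmic reticulum. None of their 16 genes passed 2-fold under both hairpins, 2 were above 0 and 11 below 0 under both, against 24.5% and 57.2% of all genes, and the median changes were -0.35 and -0.51. Beside DDIT4 and SESN2, 12 genes of mTORC1 and its other regulators were compared. Of these, 1 rose and 1 fell at least 2-fold under both hairpins, where 1.14% and 4.6% of all genes did. Of the 12, 4 were above 0 and 7 below 0 under both, where 24.5% and 57.2% of all genes were. CASTOR1, an arginine sensor that restrains mTORC1, rose from 1.21 TPM to 5.06 and 5.16 TPM, with changes of 1.46 and 1.48, and NPRL3, a subunit of the GATOR1 complex that also restrains mTORC1, fell from 42.8 TPM to 15.1 and 11.5 TPM, with changes of -1.45 and -1.81. With DDIT4 and CASTOR1 higher and NPRL3 lower, inhibitors of mTORC1 moved in both directions. MTOR itself was at 17.6, 8.81 and 8.27 TPM, with changes of -0.92 and -1.01.

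The study asked about USP16 and c-Myc, and its c-Myc signature, genes raised by c-Myc in other prostate cancer cells, holds 6 of the 10 members: DDIT4, TRIB3, CHAC1, ASNS, DDIT3 and CEBPB. MYC was at 238 TPM in shCON, 209 TPM in shUSP16#1 and 173 TPM in shUSP16#2, with changes of -0.19 and -0.46. The medians of all genes were -0.17 and -0.37, and those of genes of like GC content to MYC were -0.03 and -0.15. The MYC values are transcript levels, whereas the paper reports that knockdown lowered the c-Myc protein and left its mRNA, measured by qRT-PCR, unaffected. From its RNA-seq the paper also reports, by gene set enrichment analysis, that Myc targets and a Myc signature were enriched in control cells. That is another measure than the counts given next. Of the 310 names, 252 matched the table by exact symbol and 242 of these were compared, with median changes of -0.35 and -0.44. In the signature 41 of the 242 genes were above 0 and 177 below 0 under both hairpins, where 24.5% and 57.2% of all genes were. At least 2-fold under both, 3 rose and 15 fell, or 1.24% and 6.20% of them, beside 1.14% and 4.6% of all genes. The 6 members, with DDIT4 chosen for its rise among them, had medians of 0.59 and 0.82, with 4 above 0 under both and none below 0 under both. The 3 signature genes that rose were DDIT4, SLC6A9 (1.19 and 1.27) and DUSP23 (1.16 and 1.64). The 4 members outside the signature, ATF4, ATF3, SESN2 and PPP1R15A, had medians of 0.08 and -0.17.

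Of 9300 genes whose mean level reached 5 TPM, the 5 whose pair of changes lay nearest to that of DDIT4 by Euclidean distance over the 2 comparisons, which share shCON, were EFNA3, IRF9, EVI5L, BICDL2 and AC006449.7. EFNA3, an ephrin ligand, was nearest at a distance of 0.02, with 10.5, 26.9 and 23.3 TPM in shCON, shUSP16#1 and shUSP16#2 and changes of 1.28 and 1.08. IRF9, a factor of the interferon response, followed at 11.1, 27.3 and 24.0 TPM with changes of 1.22 and 1.04. None of the 5 was in a list of ATF4 targets used here.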

How the data were processed

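RNA-seq was done on total RNA of 3 PC3 libraries, 1 for each of shCON, shUSP16#1 and shUSP16#2, with an Illumina TruSeq kit. The authors deposited TPM values (transcript levels scaled to a fixed total and corrected for gene length), 60930 genes written to 2 decimals, from the Majorbio Cloud Platform. The submitters' processing notes list CASAVA, HISAT2 and hg19, but the quantification tool and the annotation are not given in the sources used here. Of the gene identifiers 58516 matched GENCODE release 29 (GRCh38), from which positions, overlaps and GC content of the longest transcript were taken, and the table holds no coordinates. TPM keeps no depth, so depth is unknown and no interval was computed. The deposited gene lengths were not used in any result, and 3 columns that repeat others were left out.

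Of genes sharing a symbol the entry with the highest mean was kept (1211 left out, 59719 names kept), and genes whose mean level reached 1 TPM were compared. Changes were differences of log2(TPM + 1). With 1 library in each group no test was made. A call was a change of at least 2-fold under both hairpins. To remove the GC trend, each change had the median of its GC bin (of 50) subtracted and the overall median restored. The alternatives were a pseudocount of 0.1 TPM, centring on the median of all genes, rescaling over protein-coding genes, removal of the GC trend, a minimum of 5 TPM or none, leaving out each hairpin, and the members without DDIT4. Removal of the GC trend with centring was added after seeing the data.

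The members and lists were chosen with earlier results of these data known. Genes named were all members, their paralogs, USP16 and MYC, up to 3 genes in each direction past 2-fold under both hairpins in each list, the 5 nearest to DDIT4, and the members at either side of the threshold. The other genes named from the lists, MARS, AC079781.5 and DUSP23 were chosen after their values were seen. Promoter windows were those of RefSeq (GRCh38.p14). Scripts were tested on simulated data and run with Python 3.11.15, pandas 2.3.3 and numpy 2.4.6.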

Additional observations from a re-analysis of the deposited data

Results flagged for a closer look

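The members with opposite signs under the hairpins were ATF3, DDIT3 and CEBPB, all bZIP factors. ATF3 had log2 changes of 0.11 under shUSP16#1 and -0.38 under shUSP16#2. DDIT3 had 0.39 and -0.32. CEBPB had 0.11 and -0.16. With 1 library for each hairpin the difference between the hairpins was not tested, and all these values share the shCON library.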

How the results depend on the processing

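The count of members that rose at least 2-fold under both hairpins was 1 as reported and with a pseudocount of 0.1 TPM, rescaling over protein-coding genes, no minimum and a minimum of 5 TPM. It was 2 with centring on the median of all genes, 0 with the GC trend removed, 0 without DDIT4, and 1 to 2 with a hairpin left out, the 2 being DDIT4 and CHAC1 without shUSP16#1. With the GC trend removed and centred, an alternative chosen after seeing the data, it was 1, DDIT4. No member fell at least 2-fold under any of these. The median of the members' mean change was 0.14 as reported, 0.41 with centring, 0.025 with the GC trend removed, 0.29 with it removed and centred, 0.083 without DDIT4, and 0.20 to 0.25 with a hairpin left out. By construction, centring raises every gene by the median of all genes and removal of the GC trend lowers genes rich in GC. Over 5 other scalings the mean change kept its sign in 6 members and turned in 4, and ATF4 reached -0.25, CEBPB 0.24, ATF3 0.24 and SESN2 -0.18. No paired analysis was possible because each group has 1 library. Depth is unknown from TPM and each group is 1 library, so a gene as low as SESN2 could not be judged against counting error, and neither could any difference be set against culture-to-culture spread.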
